A study of Mus musculus with 30 samples.

Results

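The proliferation genes described here are Mki67, Top2a, Cdk1, Ccnb1, Ccna2, Birc5, Cenpf, Kif11, Ccnd1 and Ccnd2, 10 of the 55401 genes in the count tables. They were matched by Ensembl identifier, and each had a row in every table. The list was drawn up after Mki67 and Ccnd2 had been seen lower in the 72 h fast than in fed mice, so values of that comparison describe how the list was chosen, and nothing is read from its counts of calls. Where other comparisons hold the fed or the 72 h fasted libraries, this is said beside them.

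RNA came from the hypothalamus of wild-type (WT) B6 mice in 9 groups and 30 libraries. The fasting table held mice that were fed, fasted for 24 h, fasted for 72 h, or fasted for 72 h with cold at 18 C, with 3 libraries each. In the refeeding table the mice had been fasted for 72 h and then had food back for 1 h (3 libraries), 12 h (3 libraries) or 1 week (4 libraries). The last table held 4 libraries of mice with food back for 1 month after such a fast and 4 of their own fed controls. The age and sex of the mice and the number of animals behind a library are not given in the sources used here, so p-values measure the spread between libraries, which may be technical. Libraries held between 27.1 and 43.4 M (mega) counts in the fasting table, 26.1 and 64.3 M in the refeeding table, where the 1 week libraries were the deepest with at least 46.9 M, and 9.35 and 13.8 M in the 1-month table. All 10 hypothalamic neuron markers were counted in every table, with summed levels, scaled to library size (CPM), of 151 to 313 in the fasting table, 296 to 554 in the refeeding table and up to 1093 in the 1-month table. Liver transcripts summed to 793 and 118 CPM in fed libraries 2 and 3 and to 42 to 141 CPM in the libraries fasted for 24 h, against 2.01 CPM in fed library 1 and at most 1.87 CPM in both groups fasted for 72 h. Skeletal muscle transcripts summed to 1341 CPM in fed library 2 and to at most 18.6 CPM in the other fasting libraries. The part of this in the differences between these groups was not tested.

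A dividing cell makes D-type cyclins (Ccnd1, Ccnd2) to pass through G1, replicates its DNA, and then builds up the products that run G2 and mitosis: the kinase Cdk1 with its cyclins (Ccna2, Ccnb1), the DNA untangling enzyme Top2a, the kinetochore protein Cenpf, the spindle motor Kif11, survivin (Birc5) and the chromosome coat protein Ki-67 (Mki67). Most hypothalamic neurons are past division in the adult. Oligodendrocyte precursors, microglia, vessel cells and the tanycytes that line the third ventricle can still divide, and Ccnd1 and Ccnd2 are also made by cells that are not dividing. In bulk RNA, fewer cells of a type and less RNA per cell cannot be told apart.

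Promoters of genes used in G2 and mitosis often carry a cell cycle genes homology region (CHR), which recruits repressor and activator complexes by cell cycle phase, together with CCAAT boxes, bound by NF-Y. RefSeq promoters (GRCm38.p6, 250 bases before to 50 after the start) were matched for 7 of the 10 genes; Ccna2, Ccnd1 and Ccnd2 are named only. Searched on both strands, TTTGAA or TTCGAA (CHR) stood in 5 of the 7 and CCAAT in 6, and both words stood in 5. Of 32851 promoters of 300 bases, 19.2% held the CHR word, 37.4% held CCAAT and 7.52% held both. The 2 words can share an end base, but in the promoters shown no match shares a base with another. The 4 promoters below are shown because Mki67, Top2a and Cenpf carried the changes described further on, while Kif11 holds the same words and passed no test. Each runs 5′ to 3′ on the gene's own strand from 250 bases before to 20 bases after the start, and capitals mark the matches of CHR and CCAAT on either strand.
Mki67, chr7:135716360-135716629, minus strand: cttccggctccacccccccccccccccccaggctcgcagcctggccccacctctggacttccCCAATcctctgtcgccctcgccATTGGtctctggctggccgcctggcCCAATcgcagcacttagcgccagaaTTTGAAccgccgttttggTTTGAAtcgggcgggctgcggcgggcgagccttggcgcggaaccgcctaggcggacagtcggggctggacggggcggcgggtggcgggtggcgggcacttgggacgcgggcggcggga
Top2a, chr11:99024170-99024439, minus strand: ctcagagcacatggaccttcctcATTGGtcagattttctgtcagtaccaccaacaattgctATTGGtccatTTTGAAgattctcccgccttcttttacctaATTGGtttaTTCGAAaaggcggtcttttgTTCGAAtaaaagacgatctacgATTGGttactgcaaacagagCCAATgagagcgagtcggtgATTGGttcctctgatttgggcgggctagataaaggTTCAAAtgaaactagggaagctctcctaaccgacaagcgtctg
Cenpf, chr1:189688067-189688336, minus strand: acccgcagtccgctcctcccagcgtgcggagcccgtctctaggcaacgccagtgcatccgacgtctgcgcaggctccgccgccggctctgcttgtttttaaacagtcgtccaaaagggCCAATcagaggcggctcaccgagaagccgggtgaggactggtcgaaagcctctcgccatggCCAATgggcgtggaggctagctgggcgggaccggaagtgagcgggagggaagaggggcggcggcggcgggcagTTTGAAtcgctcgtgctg
Kif11, chr19:37376132-37376401, plus strand: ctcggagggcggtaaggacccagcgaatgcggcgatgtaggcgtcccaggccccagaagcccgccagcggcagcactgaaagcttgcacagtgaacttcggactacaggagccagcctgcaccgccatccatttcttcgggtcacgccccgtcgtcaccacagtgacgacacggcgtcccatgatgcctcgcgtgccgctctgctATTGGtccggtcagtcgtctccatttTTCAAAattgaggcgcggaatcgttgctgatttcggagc
In the Mki67 sequence 2 CHR words (first bases at -116 and -98, counted from the start) lie on the gene side of 3 CCAAT matches at -188, -166 and -141. Top2a has 4 CHR matches and 6 CCAAT matches in the window. At least 3 CCAAT matches were found in 3.37% of the 32851 promoters and at least 2 CHR matches in 2.54%. Cenpf holds its CHR word at 3, just inside the transcript, with CCAAT at -132 and -71. In Kif11 the CHR match at -19 and the CCAAT match at -45 were single. Of the promoters not shown, Cdk1 has 2 CHR and 3 CCAAT matches, as Mki67 does, although it passed the count filter in no table. Ccnb1 has 0 CHR and 2 CCAAT matches, and Birc5 has 0 of each. A link between the number of matches and the changes was not tested. A match of letters is a description, and no binding was measured here.

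Levels of different genes were compared per length only in the 1-month fed controls, because the fasting and refeeding tables appear to count reads over whole gene spans. Ccnd1 was the highest at 4.10 ± 0.427 CPM per kb of exon (SD, n = 4), followed by Ccnd2 at 2.06 ± 0.227 and Ccna2 at 0.817 ± 0.155. The libraries of these 3 genes did not overlap in this measure. Kif11 (0.340), Mki67 (0.310), Birc5 (0.273), Top2a (0.203) and Cenpf (0.151) followed, each overlapping with the next. Cdk1 (0.0645) and Ccnb1 (0.0453) were the lowest and were at 0 counts in at least 1 control library each. D-type cyclin RNA was therefore above that of every other gene in the list per length. The lowest control library of Ccnd2 was at 1.8 and the highest of Ccna2 at 1.01.

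Only genes with enough counts were tested by the edgeR quasi-likelihood test, with Benjamini-Hochberg adjustment over the genes of a table. Of the 10 genes, 9 passed this count filter in the fasting table (not Cdk1), 8 in the refeeding table (not Cdk1 and Ccnb1) and 7 in the 1-month table (not Cdk1, Ccnb1 and Birc5). A gene was called when its adjusted p was below 0.05. Levels below are CPM on the TMM scale, per library in the order of the labels' numbers, and changes are log2 fold changes ± SE, of the group named second relative to the one named first.

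**Figure D1:**
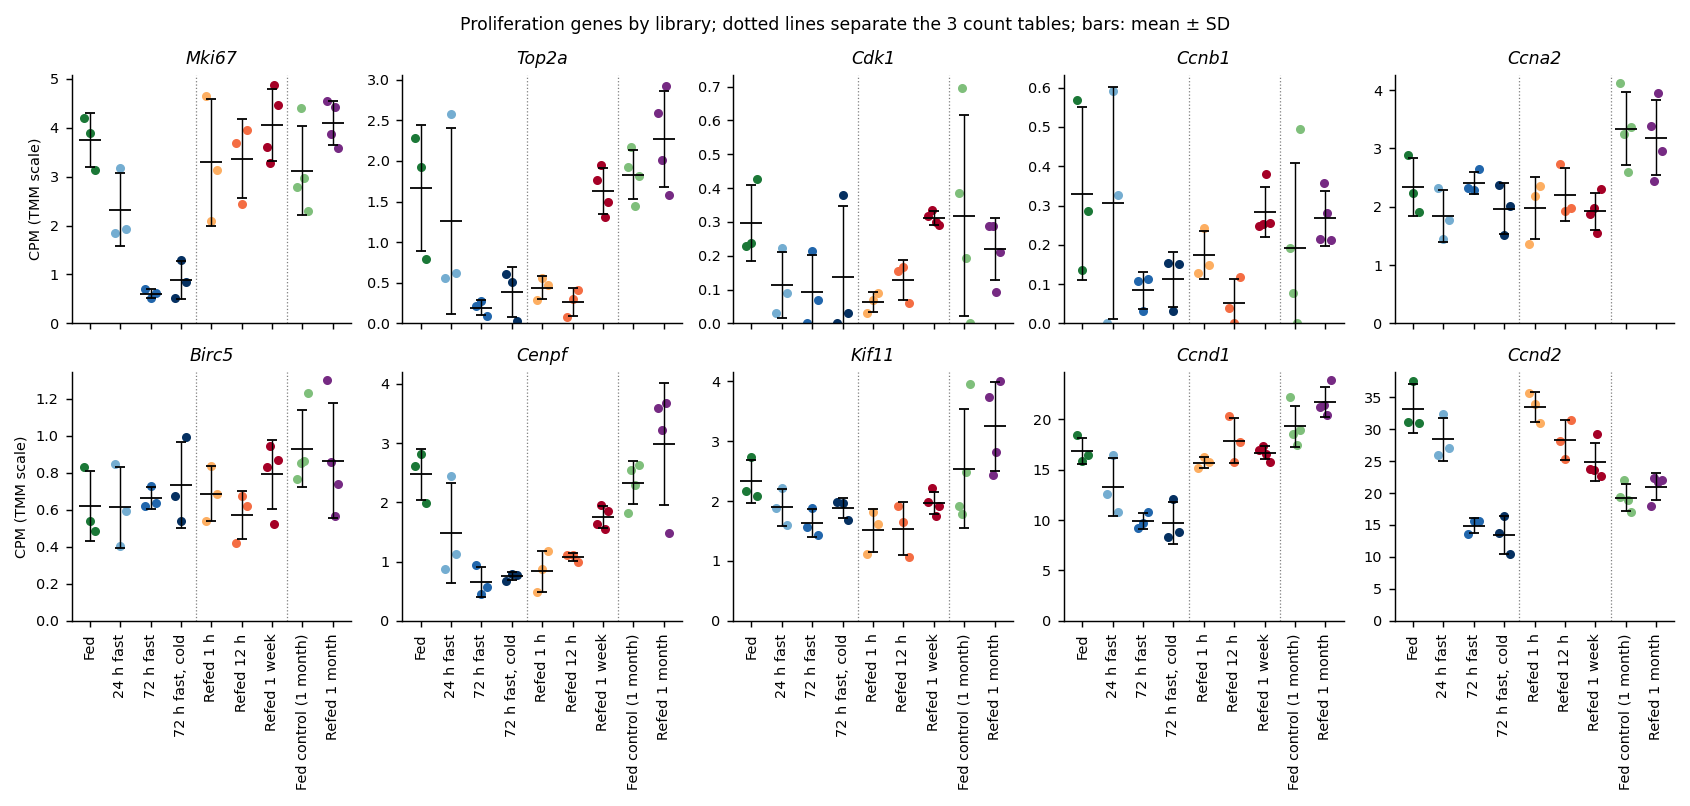
Each panel plots 1 gene, with CPM on the TMM scale on the y axis (from 0) and the 9 groups on the x axis; points are libraries, bars are the mean ± SD, and dotted lines separate the 3 count tables. Mki67 and Ccnd2 sit lowest in both groups fasted for 72 h, while Top2a is also low at 1 h and 12 h of refeeding.

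Mki67, the Ki-67 protein used as a marker of cells in cycle, was at 4.21, 3.9 and 3.13 CPM in the fed libraries and at 1.85, 3.18 and 1.92 CPM after 24 h of fasting. After 72 h it was at 0.704, 0.517 and 0.614 CPM, and with cold at 0.520, 1.30 and 0.841 CPM. The fed and 24 h libraries overlapped, and so did both groups fasted for 72 h, while every library fasted for 72 h lay below every fed and 24 h library. As a description of the comparison the list was chosen on, the 72 h mean was 6.07-fold below the fed mean (log2 fold change -2.60 ± 0.34). Behind this stood 336 counts in the 3 fed libraries and 70 in the 3 libraries fasted for 72 h.

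Ccnd2, the D-type cyclin known from neural progenitors and granule neurons, was also lowest in both groups fasted for 72 h. Its fed libraries held 31.1, 37.6 and 31.0 CPM and the 24 h libraries 25.9, 32.3 and 27.1 CPM. After 72 h the values were 13.6, 15.6 and 15.6 CPM, and with cold 13.7, 16.4 and 10.4 CPM. No library fasted for 72 h, with or without cold, reached the lowest 24 h value. The fed mean was 2.22-fold above the 72 h mean (log2 fold change -1.15 ± 0.15, a description as for Mki67). Other genes cover 14.1% of the Ccnd2 span and 28.7% of its exon bases. Among them is the antisense transcript 9330179D12Rik, which was at 4.02 ± 0.685 CPM in fed and 5.17 ± 1.05 CPM in 72 h fasted libraries (SD, n = 3).

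Ccnd1, the other D-type cyclin in the list, moved less. It was at 18.4, 15.9 and 16.5 CPM in fed libraries, 12.6, 16.5 and 10.8 CPM at 24 h, 9.18, 9.75 and 10.8 CPM at 72 h, and 8.28, 12.1 and 8.83 CPM with cold. The fed libraries lay above both groups fasted for 72 h without overlap, with a difference to 72 h of -0.77 ± 0.17. The neighbouring gene LTO1 on the other strand covers 17.7% of the Ccnd1 span and 37.6% of its exon bases. If strand was not used in the fasting and refeeding tables, reads of the shared stretch may have been counted for either gene or dropped.

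Top2a, which cuts and rejoins both strands of DNA so that chromosomes can separate, varied within groups. Its values were 2.28, 1.93 and 0.797 CPM in fed libraries and 0.563, 2.58 and 0.622 CPM at 24 h, so 1 library fasted for 24 h was above every fed one. At 72 h they were 0.217, 0.273 and 0.0909 CPM and with cold 0.611, 0.507 and 0.0300 CPM, the last from a single count. The 72 h libraries lay below the fed ones, with a difference of -3.11 ± 0.83 on 145 and 21 counts. The 9 blood cell markers summed to 7.91 to 17.5 CPM in fed libraries, 4.04 to 7.75 at 24 h, 1.52 to 3.09 at 72 h and 2.55 to 2.66 with cold, with Alas2 at 0. Their part in the Top2a values was not tested. Alas2 and the other markers given at 0 below had 0 counts in every library of the fasting and refeeding tables. No listed marker found in the 1-month table was at 0 in all its libraries, so these zeros are not read as absent RNA.

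Cenpf, a kinetochore protein that accumulates in G2, was at 2.62, 2.81 and 1.99 CPM in fed libraries and 0.876, 2.44 and 1.13 CPM at 24 h. It was at 0.948, 0.456 and 0.568 CPM at 72 h and at 0.672, 0.792 and 0.781 CPM with cold. Library 2 of the 24 h group was the highest of its group for Mki67, Top2a, Cenpf, Kif11, Ccnd1 and Ccnd2. The difference from fed to 72 h was -1.90 ± 0.39.

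Kif11, Ccna2 and Birc5 had smaller differences. Kif11, the motor that pushes spindle poles apart, was at 2.33 ± 0.363 CPM fed, 1.90 ± 0.309 at 24 h, 1.63 ± 0.232 at 72 h and 1.88 ± 0.170 with cold (SD, n = 3). Ccna2, the cyclin of S phase and G2, was at 2.34 ± 0.496 CPM fed and 2.41 ± 0.194 CPM at 72 h. Birc5, survivin, was at 0.620 ± 0.188 and 0.663 ± 0.0579 CPM in the same groups. The differences from fed to 72 h were -0.52 ± 0.22 for Kif11, 0.05 ± 0.25 for Ccna2 and 0.10 ± 0.38 for Birc5. Exosc9 on the other strand covers 11.8% of the Ccna2 span and 21.1% of its exon bases, and was at 25.1 CPM in fed libraries. Whether reads of the shared stretch were counted for Ccna2, for Exosc9 or for neither is not known.

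Cdk1 and Ccnb1, the kinase and cyclin pair that starts mitosis, were near the limit of detection. Cdk1 had 6, 7 and 15 counts in fed libraries, 1, 6 and 3 at 24 h, 0, 7 and 3 at 72 h, and 0, 12 and 1 with cold. Ccnb1 had 15, 4 and 10 counts in fed libraries, 0, 16 and 11 at 24 h, 4, 1 and 5 at 72 h, and 5, 1 and 5 with cold. The difference from fed to 72 h was -1.86 ± 0.97 for Ccnb1 and, with the count filter dropped, -1.70 ± 1.09 for Cdk1. These are near that of Cenpf in size but have wider errors.

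From fed to 72 h, 5 of the 9 genes tested were called lower (Mki67, Top2a, Cenpf, Ccnd1 and Ccnd2) and 0 higher, where 7.78% of all 20408 genes tested were called lower. The libraries of 7 of the 9 lay below the fed ones without overlap, where those of 20.6% of all genes did. In the 6 fits that each left out 1 library, the calls of Mki67 and Ccnd2 were kept in all 6. That of Cenpf was kept in 3, and those of Top2a and Ccnd1 in 1 each. This is the comparison the list was chosen on, so nothing is read from the count. From fed to 72 h with cold, which shares the fed libraries, Mki67 (-2.07 ± 0.33), Cenpf (-1.72 ± 0.39), Ccnd1 (-0.80 ± 0.17) and Ccnd2 (-1.30 ± 0.15) were called lower, where 9.16% of all genes were. The values of Top2a (-2.11 ± 0.78, adjusted p 0.0751), Ccnb1 (-1.50 ± 0.96), Kif11 (-0.31 ± 0.22), Ccna2 (-0.24 ± 0.25) and Birc5 (0.26 ± 0.38) missed the edgeR threshold, and Cdk1 without the filter was at -1.11 ± 1.06. From fed to 24 h, which also shares them, the edgeR test called 0 of the 9, where it called 0.0343% of all genes. At an unadjusted p below 0.05 there were 1 of the 9 (Mki67) and 2118 of all genes, and DESeq2 called 0 of the 9 and 206 genes. Mki67 (-0.70 ± 0.31), Cenpf (-0.75 ± 0.37), Top2a (-0.42 ± 0.71), Ccnd1 (-0.35 ± 0.17), Ccna2 (-0.34 ± 0.25), Kif11 (-0.30 ± 0.22), Ccnd2 (-0.23 ± 0.15) and Ccnb1 (-0.12 ± 0.86) had values below 0, and Birc5 was at 0.01 ± 0.38. The median change of the 9 was -0.34 from fed to 24 h, and that of all genes tested was 0.00429.

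Between 24 h and 72 h, which holds the libraries of the choice, Mki67 (-1.91 ± 0.34) and Ccnd2 (-0.93 ± 0.15) were called lower, where 1.06% of all genes were. Top2a (-2.69 ± 0.84, adjusted p 0.104), Ccnb1 (-1.75 ± 0.98), Cenpf (-1.15 ± 0.39), Ccnd1 (-0.42 ± 0.17), Kif11 (-0.22 ± 0.22), Birc5 (0.10 ± 0.38) and Ccna2 (0.39 ± 0.25) were not called. Leaving out any 1 of the 72 h libraries ended both of these calls, as did leaving out library 2 of the 24 h group for Mki67. From 72 h to 72 h with cold, edgeR called 0 of the 9 genes and 0 of all genes (0%), with 0 of the 9 and 1296 genes at an unadjusted p below 0.05 and 0 of the 9 and 53 genes called by DESeq2. Top2a (1.00 ± 0.89), Mki67 (0.53 ± 0.35), Ccnb1 (0.36 ± 1.09), Kif11 (0.21 ± 0.22), Cenpf (0.18 ± 0.40), Birc5 (0.15 ± 0.37), Ccnd1 (-0.02 ± 0.17), Ccnd2 (-0.15 ± 0.15) and Ccna2 (-0.29 ± 0.25) lay on both sides of 0. The 95% interval for Mki67 ran from -0.22 to 1.28 and that for Ccnd2 from -0.48 to 0.19, so a rise of Mki67 with cold up to its upper bound is not excluded.

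One fasting comparison holds neither the fed nor the 72 h libraries in its 2 groups: 24 h of fasting against 72 h with cold. Those libraries still enter its tests through the spread, which was estimated over all groups of the table. Mki67 fell 2.60-fold there, from 2.32 ± 0.746 to 0.887 ± 0.392 CPM (SD, n = 3), with a log2 fold change of -1.38 ± 0.33 and an adjusted p of 0.0321 by the edgeR quasi-likelihood test. Ccnd2 fell 2.11-fold, from 28.4 ± 3.39 to 13.5 ± 2.97 CPM, with a log2 fold change of -1.07 ± 0.15 and an adjusted p of 0.00912 by the same test. Each of the 3 cold libraries was below each of the 3 libraries fasted for 24 h for both genes. These 2 of 9 genes compare with 3.22% of all 20408 genes called lower and 6.98% called in either direction. Together with Cenpf, 3 of the 9 were lower without overlap, where 16.1% of all genes were. This comparison differs in both fasting time and cold, and their parts cannot be told apart in it. The values above were -1.91 for Mki67 and -0.93 for Ccnd2 from 24 h to 72 h. From 72 h to 72 h with cold they were 0.53 and -0.15, neither of them called. Both of these comparisons hold the 72 h libraries of the choice, so they give no separate reading of the 2 parts.

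The call of Mki67 in this comparison rested on few libraries. It was kept in 2 of the 6 fits that each left out 1 library and was lost without 24 h library 2 (log2 fold change -1.09, adjusted p 0.101), 24 h library 3, cold library 1 (-1.08, adjusted p 0.130) or cold library 3. The call of Ccnd2 was kept in 5 of the 6 and lost without cold library 1 (-1.06, adjusted p 0.0556). Fitted on these 2 groups alone, Ccnd2 was called and Mki67 was not (-1.35, adjusted p 0.0835).

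For the other genes the same comparison gave no call. Top2a (-1.69 ± 0.78, adjusted p 0.187), Cenpf (-0.97 ± 0.39, adjusted p 0.135) and Ccnd1 (-0.45 ± 0.17, adjusted p 0.124) had negative values that missed the edgeR threshold. Ccnb1 had the same log2 value as Mki67 with a wider error (-1.38 ± 0.97, adjusted p 0.379 by edgeR). Kif11 (-0.01 ± 0.22), Ccna2 (0.09 ± 0.25) and Birc5 (0.25 ± 0.38) lay near 0, and Cdk1 without the filter was at 0.29 ± 1.14.

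Markers of other cells moved in the same libraries. The 11 neuroblast markers summed to 198 to 201 CPM in fed libraries, 180 to 205 at 24 h, 144 to 150 at 72 h and 113 to 175 with cold, with Dlx1 at 0 in this table. From 24 h to cold 1 of the 10 neuroblast markers tested was called, and it fell (Sox11, -0.73 ± 0.17, adjusted p 0.0277 by edgeR). The 12 striatal neuron markers summed to 1400 to 1484 CPM at 24 h and to 709 to 1006 CPM with cold, and 8 of 12 fell. Of the 12 endothelial markers 5 fell and 1 rose, with sums of 278 to 307 CPM at 24 h and 201 to 244 CPM with cold. Markers of oligodendrocyte precursors, which divide throughout adult life, summed to 481 to 505 CPM at 24 h and 754 to 777 CPM with cold, with Gpr17 at 0. Of the 11 tested 1 was called, and it rose (Lhfpl3, from 175 to 449 CPM, adjusted p 0.0233 by edgeR), while the median change of the list was -0.05. Tanycyte markers summed to 174 to 238 CPM at 24 h and 141 to 165 CPM with cold, with Sox2 at 0, and 1 of 11 fell (Crym, -2.55 ± 0.63, adjusted p 0.0413). Microglial markers summed to 169 to 251 and 142 to 194 CPM, with P2ry12 at 0, and 1 of 9 fell (Trem2, -0.97 ± 0.23, adjusted p 0.0325). Of the other lists, 3 of 11 pericyte and smooth muscle markers, 1 of 8 choroid plexus markers, 1 of 6 blood markers and 0 of 7 meningeal, 0 of 6 liver, 0 of 6 skeletal muscle and 0 of 4 pituitary markers were called, each lower. From fed to 72 h the markers called lower were 8 of 12 endothelial, 8 of 12 striatal, 6 of 8 choroid plexus, 5 of 11 pericyte, 5 of 6 liver, 5 of 6 skeletal muscle, 4 of 6 blood, 3 of 7 meningeal, 3 of 9 microglial, 3 of 11 oligodendrocyte precursor, 2 of 11 tanycyte and 2 of 10 neuroblast markers. In that comparison 1 of the 11 oligodendrocyte precursor markers was called higher, and the median change of that list was -0.21. Its sum was 474 to 614 CPM in fed libraries and 641 to 696 CPM in libraries fasted for 72 h. The part of these cell types in the changes of Mki67 and Ccnd2 was not tested.

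**Figure D2:**
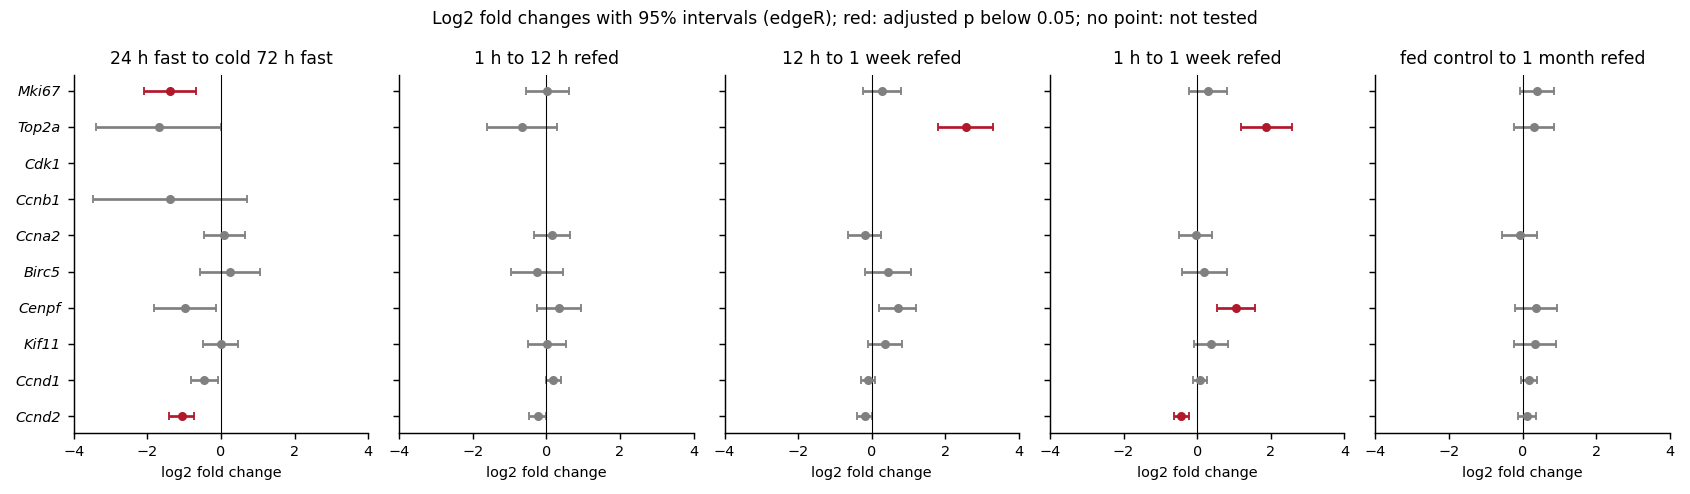
Log2 fold changes (x axis) of each gene (y axis) in the 5 comparisons that hold neither the fed nor the 72 h libraries used for the choice, with 95% intervals; red marks an adjusted p below 0.05, and a gene without a point was not tested. In the fasting comparison those libraries enter through the estimate of the spread. Mki67 and Ccnd2 are below 0 from 24 h to the cold 72 h fast, and Top2a is above 0 at 1 week against both earlier times.

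After refeeding, Mki67 lay between 2.09 and 4.87 CPM at the 3 times measured. It was at 4.65, 2.09 and 3.14 CPM after 1 h, 3.69, 2.45 and 3.96 CPM after 12 h, and 3.60, 3.28, 4.87 and 4.46 CPM after 1 week. The 3 groups overlapped, and the change from 1 h to 1 week was 0.30 ± 0.24 (adjusted p 0.384 by edgeR, 95% interval -0.22 to 0.82). The refeeding table holds no fasted or fed group, so these levels are given beside the fasting values without a test between the tables.

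Top2a rose between 12 h and 1 week of refeeding. It was at 0.287, 0.557 and 0.478 CPM after 1 h, 0.0769, 0.303 and 0.413 CPM after 12 h, and 1.76, 1.95, 1.31 and 1.5 CPM after 1 week. Every 1 week library, at 1.31 CPM or more, was above every 1 h and 12 h library, at 0.557 CPM or less. The counts were 83 to 100 against 2 to 16, but the 1 week libraries were also deeper (46.9 to 64.3 M against 26.1 to 34.1 M). Refeeding time cannot be told apart from other differences between these sets of libraries, for Top2a and for the genes below. From 12 h to 1 week the rise was 5.85-fold (log2 fold change 2.55 ± 0.35, adjusted p 0.000802), and from 1 h to 1 week 3.69-fold (1.88 ± 0.32, adjusted p 0.000754), both by the edgeR quasi-likelihood test. Both calls were kept in each of the 7 fits that left out 1 library, with values from 2.18 to 3.02 and from 1.66 to 2.07.

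Cenpf followed with a smaller change. It was at 0.478, 0.871 and 1.17 CPM after 1 h, 1.11, 1.11 and 1.00 CPM after 12 h, and 1.64, 1.95, 1.55 and 1.86 CPM after 1 week. The rise from 1 h to 1 week was 2.07-fold (1.05 ± 0.24, adjusted p 0.0055 by edgeR) and was called in each of 7 fits without 1 library. From 12 h the value was 0.70 ± 0.23, which missed the threshold in the fit of the whole table (adjusted p 0.0668) although the groups did not overlap. It passed with DESeq2 (adjusted p 0.0482) and with these 2 groups fitted alone (adjusted p 0.0353).

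Cdk1 and Ccnb1 were too low for the count filter in this table but were also highest after 1 week. Cdk1 had 1, 2 and 3 counts after 1 h, 4, 5 and 2 after 12 h, and 18, 16, 19 and 17 after 1 week. In CPM the 1 week libraries (0.290 to 0.336) lay above those of 1 h and 12 h (at most 0.168). Ccnb1 was at 0.127 to 0.244 CPM after 1 h, 0 to 0.118 after 12 h and 0.247 to 0.379 after 1 week, so Ccnb1 was lowest at 12 h and Cdk1 at 1 h in the mean. With the count filter dropped, edgeR called Cdk1 higher from 1 h to 1 week (2.24 ± 0.60, adjusted p 0.00732) and Ccnb1 from 12 h to 1 week (2.32 ± 0.67, adjusted p 0.0239). It called neither Ccnb1 from 1 h (0.73 ± 0.53) nor Cdk1 from 12 h (1.32 ± 0.54) to 1 week.

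Kif11 (1.51 ± 0.359, 1.54 ± 0.439 and 1.97 ± 0.187 CPM at 1 h, 12 h and 1 week), Ccna2 (1.98 ± 0.532, 2.21 ± 0.452 and 1.92 ± 0.310 CPM) and Birc5 (0.688 ± 0.147, 0.572 ± 0.132 and 0.791 ± 0.186 CPM) overlapped between the 3 times (SD, n = 3, 3 and 4). None of the 3 genes was called in a refeeding comparison by edgeR. From 1 h to 1 week the 95% interval of Kif11 ran from -0.08 to 0.84 and that of Ccna2 from -0.49 to 0.41.

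The D-type cyclins took another course. Ccnd2 was at 35.6, 33.9 and 30.9 CPM after 1 h, 28.1, 25.3 and 31.4 CPM after 12 h, and 23.8, 23.6, 29.2 and 22.6 CPM after 1 week. It fell 1.35-fold from 1 h to 1 week (-0.43 ± 0.10, adjusted p 0.00427 by edgeR), with no overlap between these groups, and was called without any 1 of the 7 libraries. The intermediate steps, 1 h to 12 h (-0.24 ± 0.10) and 12 h to 1 week (-0.19 ± 0.10), were not called. Ccnd1 stayed between 15.2 and 20.3 CPM in the 10 libraries, with a difference of 0.08 ± 0.09 from 1 h to 1 week.

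Counted together, from 1 h to 12 h edgeR called 0 of the 8 genes tested, where 14.2% of all 19932 genes were called. At an unadjusted p below 0.05 there were 1 of the 8 (Ccnd2) and 5862 of all genes, and DESeq2 called 0 of the 8 and 3350 genes. In that step Top2a was at -0.67 ± 0.45, Birc5 at -0.25 ± 0.33, Kif11 at 0.02 ± 0.24, Mki67 at 0.03 ± 0.27, Ccna2 at 0.15 ± 0.24, Ccnd1 at 0.19 ± 0.09 and Cenpf at 0.35 ± 0.28. From 12 h to 1 week 1 of 8 (Top2a) was called higher and 0 lower, where 6.56% of all genes were called higher and 11.6% in either direction. Higher without overlap were 2 of 8 (Top2a, Cenpf), where 11.9% of all genes were. Mki67 (0.27 ± 0.24), Birc5 (0.45 ± 0.29), Kif11 (0.36 ± 0.22), Ccna2 (-0.19 ± 0.21) and Ccnd1 (-0.10 ± 0.09) were not called in that step. From 1 h to 1 week 2 of 8 were called higher (Top2a, Cenpf) and 1 lower (Ccnd2), where 13.5% of all genes were called in each direction. The same 3 genes were those without overlap, where 18.5% of all genes were higher and 18.4% lower without overlap. The share of these genes called was thus near the share of all genes, and nothing is read from the counts.

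The 1 week libraries differed from the earlier ones in other markers too. The 9 blood cell markers summed to 69.2 to 124 CPM after 1 h, 77.4 to 121 CPM after 12 h and 402 to 1258 CPM after 1 week, with Alas2 at 0, and 4 of the 6 tested rose from 12 h to 1 week (Hbb-bs, 2.96 ± 0.48, adjusted p 0.0113 by edgeR). The 9 meningeal markers summed to 32 to 59.1, 58.9 to 70.1 and 97.9 to 138 CPM at the 3 times, with Ogn and Igf2 at 0, and 4 of 7 rose from 12 h to 1 week. Of the 9 microglial markers tested 7 rose from 1 h to 1 week (sums of 148 to 156 and 181 to 213 CPM, P2ry12 at 0) and 0 were called from 12 h to 1 week. Neuroblast markers summed to 204 to 209 CPM after 1 h and 154 to 181 CPM after 1 week, and 6 of 10 fell. Striatal neuron markers had a median change of -0.40 from 1 h to 1 week, with 0 of 12 called and sums of 985 to 2110 and 752 to 1956 CPM. Of the 12 endothelial markers 1 fell from 1 h to 1 week and 4 fell from 12 h to 1 week. The part of these cells in the changes of Top2a, Cenpf and Ccnd2 was not tested.

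**Figure D3:**
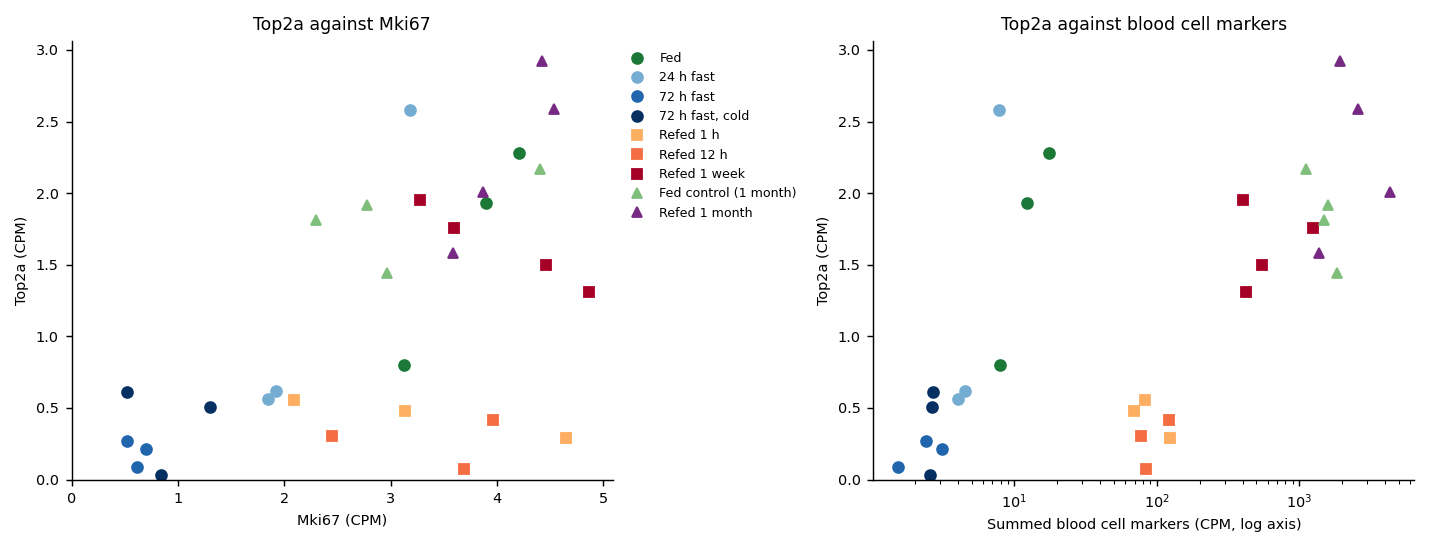
Top2a CPM (y axes) of each of the 30 libraries against Mki67 CPM (left) and against the summed CPM of blood cell markers on a log axis (right); colours are groups, and circles, squares and triangles are the fasting, refeeding and 1-month tables. The libraries refed for 1 h and 12 h have Mki67 between 2.09 and 4.65 CPM with Top2a at or below 0.557 CPM.

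Set side by side, Top2a and Mki67 were both lowest in the groups fasted for 72 h within the fasting table. In the libraries refed for 1 h and 12 h Mki67 stood between 2.09 and 4.65 CPM, and Top2a between 0.0769 and 0.557 CPM. From 1 h to 1 week the change was 1.88 ± 0.32 for Top2a and 0.30 ± 0.24 for Mki67, and the difference between the 2 genes was not tested.

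One month after refeeding no gene of the list differed from the fed controls beyond the test. Mki67 was at 2.78, 4.41, 2.97 and 2.30 CPM in controls and 4.54, 3.87, 4.42 and 3.59 CPM in refed libraries (0.39 ± 0.22, adjusted p 0.272 by edgeR). Top2a was at 1.92, 2.17, 1.44 and 1.81 CPM and 2.59, 2.01, 2.92 and 1.58 CPM (0.31 ± 0.26). Cenpf was at 1.82, 2.55, 2.30 and 2.63 CPM in controls and 3.60, 3.22, 3.67 and 1.48 CPM in refed libraries (0.37 ± 0.27). The groups overlapped for each of these genes.

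Ccnd1 (19.3 ± 2.01 and 21.7 ± 1.49 CPM), Ccnd2 (19.3 ± 2.14 and 21.0 ± 2.10 CPM), Kif11 (2.54 ± 0.992 and 3.25 ± 0.746 CPM) and Ccna2 (3.34 ± 0.631 and 3.18 ± 0.643 CPM) also overlapped between controls and refed mice (SD, n = 4). The edgeR test called 0 of the 7 genes tested, where 10.1% of all 14867 genes were called. At an unadjusted p below 0.05 there were 0 of the 7 and 4028 of all genes, and DESeq2 called 0 of the 7 and 1966 genes. Birc5 (0.929 ± 0.208 and 0.865 ± 0.312 CPM), Cdk1 (0.318 ± 0.297 and 0.220 ± 0.0913 CPM) and Ccnb1 (0.191 ± 0.217 and 0.267 ± 0.069 CPM) were not tested. The 95% interval reached from -0.08 to 0.86 for Mki67, from -0.24 to 0.86 for Top2a and from -0.12 to 0.36 for Ccnd2. Meningeal markers summed to 84.3 to 212 CPM in controls and 548 to 910 CPM in refed libraries, and 8 of 9 rose. Endothelial markers summed to 306 to 361 CPM and 401 to 506 CPM, and 6 of 12 rose. Pericyte and smooth muscle markers summed to 195 to 240 and 344 to 542 CPM, and 3 of 10 rose. Microglial markers summed to 280 to 348 and 373 to 404 CPM, and 3 of 10 rose. Of the neuroblast markers 1 of 9 fell, and of the hypothalamic neuron markers 1 of 10. The part of these cells in the values of the 10 genes was not tested.

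Other genes of the division machinery were read from 5 lists that hold 77 genes outside the 10: G1 cyclins and kinases (6), CDK inhibitors (7), E2F and pocket proteins (14), DNA replication (20) and mitosis (30). From fed to 72 h 2 of the 68 tested were called higher and 3 lower, where 15.1% of all genes were called in either direction. Their median was -0.13, and that of all genes was 0.00762. As this is the comparison of the choice, the values are a description. The 3 were Nuf2, a kinetochore subunit (3.61 to 1.22 CPM, -1.56 ± 0.28), Cenpe, a kinetochore motor (2.37 to 1.18 CPM, -0.999 ± 0.251), and Pcna, the DNA clamp of replication (25.9 to 17.6 CPM, -0.56 ± 0.17). Cdc25b, the phosphatase that activates CDKs, was higher (3.97 to 6.50 CPM, 0.71 ± 0.19). Ccnd3, Cdk4, Cdk6 and the other G1 genes gave 0 calls from fed to 72 h.

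**Figure D4:**
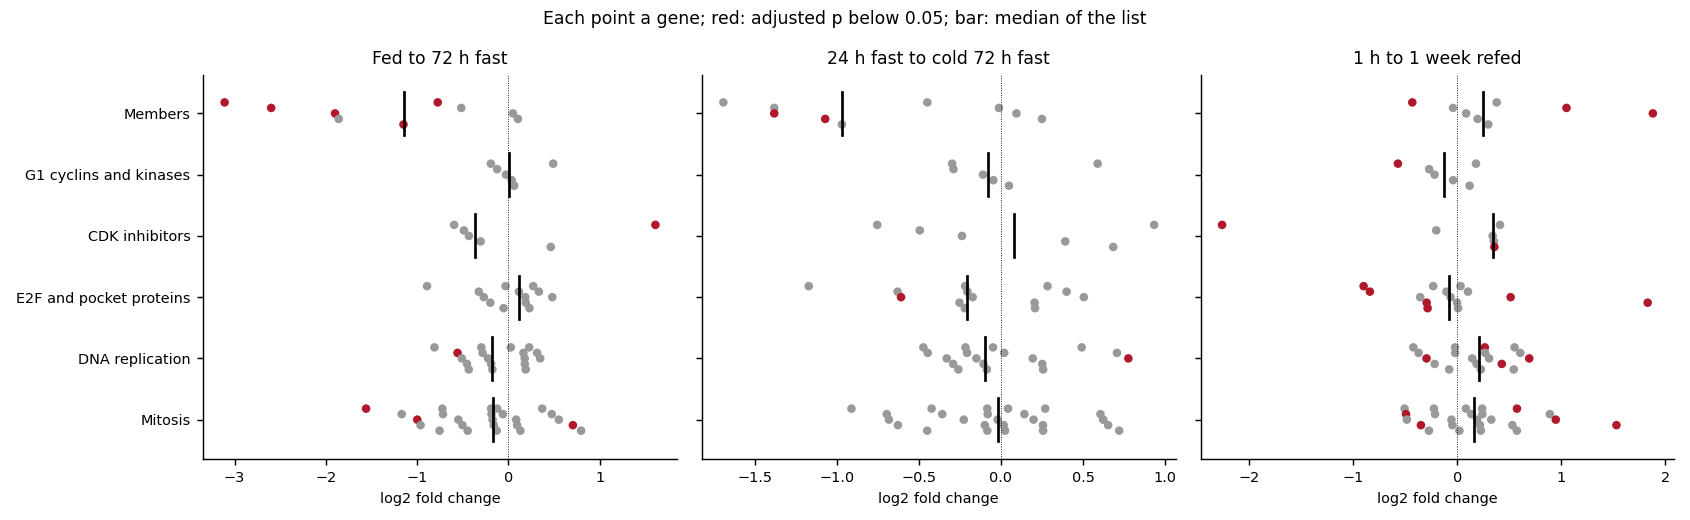
Log2 fold change (x axis) of every tested gene of the 10 proliferation genes (Members) and of the 5 lists (y axis) in 3 comparisons; each point is a gene, red marks an adjusted p below 0.05, and a bar is the list's median. The values from fed to the 72 h fast describe the comparison the 10 genes were chosen on, and the medians of the DNA replication and mitosis lists lie there at -0.18 and -0.17.

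The CDK inhibitor p21, Cdkn1a, had the largest called changes of the 5 lists in size. It was at 8.72, 6.68 and 7.17 CPM in fed libraries, 28.5, 34.9 and 27.9 CPM at 24 h, 29.5, 18.7 and 20.7 CPM at 72 h, and 66.8, 32.3 and 75.1 CPM with cold. The fed libraries were below each of the others without overlap. It was 3.05-fold above fed at 72 h (1.61 ± 0.28). Against the same fed libraries it rose 4.05-fold by 24 h (2.02 ± 0.28, adjusted p 0.0414) and 7.73-fold with cold (2.95 ± 0.29, adjusted p 0.000567), by edgeR. From 72 h to 72 h with cold the libraries did not overlap, but edgeR did not call Cdkn1a (1.34 ± 0.27, adjusted p 0.343). After refeeding it fell from 33.2, 28.1 and 35.2 CPM at 1 h to 8.30, 5.01 and 7.29 CPM at 12 h (-2.23 ± 0.16, adjusted p 3.82e-06) and was at 6.10 to 7.82 CPM after 1 week. From fed to 24 h Cdkn1a was thus called higher, while Mki67 (-0.70 ± 0.31) overlapped with the fed group and was not called. Among the refed groups, Cdkn1a was lower at 12 h than at 1 h, and Top2a was lower at 12 h than at 1 week. The order of the changes of these genes was not tested.

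The related inhibitors did not follow. Cdkn1b (p27) was at 54.1 ± 6.96 CPM fed and 43.7 ± 1.60 CPM at 72 h (-0.31 ± 0.15). Cdkn1c (p57) was at 4.28 ± 0.55 CPM fed, 3.17 ± 0.944 CPM at 72 h and 2.00 ± 0.438 CPM with cold, where it fell (-1.09 ± 0.26, adjusted p 0.0161 by edgeR).

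From 24 h to 72 h with cold, 1 of the 68 rose (Pola1, a subunit of DNA polymerase alpha, 0.78 ± 0.18, adjusted p 0.0273) and 1 fell (E2f5, a repressor of the E2F family, -0.61 ± 0.11, adjusted p 0.0154), by edgeR, where 6.98% of all genes were called. Cdkn1a was at 0.93 ± 0.27 there with an adjusted p of 0.0549. The list of 25 tested mitosis genes gave 0 calls, with a median of -0.02.

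During refeeding, 4 of the 68 rose from 12 h to 1 week and 0 fell, where 6.56% of all genes were called higher. The 4 were Mcm6 (0.48 ± 0.13) and Mcm3 (0.71 ± 0.22), subunits of the replicative helicase, Aspm, a spindle pole protein (0.81 ± 0.23), and the CDK inhibitor Cdkn2d (0.46 ± 0.09). From 1 h to 1 week 9 rose and 9 fell, where 13.5% of all genes were called in each direction. These shares are near those of all genes, so the genes named are examples and nothing is read from the counts. The risers included Mcm2 (0.69 ± 0.16), Nuf2 (0.863 to 2.54 CPM, 1.53 ± 0.31, adjusted p 0.00247), and Ect2 of cytokinesis (0.95 ± 0.25). Those that fell included Ccnd3 (34.9 to 23.5 CPM, -0.57 ± 0.11), E2f1 (-0.90 ± 0.24), Cdc25b (-0.49 ± 0.11) and Racgap1 (-0.35 ± 0.09). Rrm2, a subunit of ribonucleotide reductase, fell from 1.27 to 0.541 CPM between 1 h and 12 h (-1.23 ± 0.33, adjusted p 0.0239 by edgeR).

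At 1 month 3 of the 62 tested rose and 2 fell, where 10.1% of all genes were called. Ccnd3 rose from 21.2 to 31.2 CPM (0.56 ± 0.14, adjusted p 0.0181), Rb1 rose (0.31 ± 0.08) and Anln, a cytokinesis scaffold that is also abundant in oligodendrocytes, rose from 41.3 to 68.9 CPM (0.75 ± 0.19). The 2 that fell were Bub1b of the spindle checkpoint (-0.73 ± 0.18) and Incenp of the chromosomal passenger complex (-0.37 ± 0.11). Incenp partners Birc5, which was too low to be tested in this table.

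Across the 22 libraries of the fasting and refeeding tables, each centred on its table, the log2 levels of Mki67 ran most closely with Gucy1b1 (Pearson r 0.915), Tsr1 (0.909), Sbno1 (0.894), Cdc5l (0.892) and Slitrk2 (0.892) among 15685 genes. Within the list, r with Mki67 was 0.857 for Ccnd1, 0.819 for Ccnd2, 0.773 for Cenpf and 0.632 for Top2a, but -0.235 for Ccna2 and -0.321 for Birc5. The genes nearest to Ccnd2 were D430019H16Rik (0.950), Kcnv1 (0.948), Slc8a2 (0.947), Ctxn1 (0.940) and 1700030J22Rik (0.930). None of these 10 nearest genes is in the 5 cell cycle lists. These correlations describe libraries that share groups and depth, and the fed, 24 h and 72 h libraries in which Mki67 and Ccnd2 were seen to differ are among them.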

How the data were processed

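RNA of mouse hypothalamus was extracted with Qiagen RNeasy, depleted of ribosomal RNA and made into directional libraries, per the labels' protocols. HISAT2, featureCounts and edgeR on mm10 are named in the submitters' processing notes, without versions or options. The authors deposited 3 tables of raw counts per gene, and 2 columns that match no labelled library were not used. The authors' deposited edgeR results were not used here. The members, gene lists and promoter words were chosen with earlier results of these data known.

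Genes were matched by Ensembl identifier, and positions come from GENCODE M21. In the fasting and refeeding tables genes with long introns had more counts than in the 1-month table (median log2 ratio 1.17 for 766 genes with spans over 32 times their exons, -0.888 for 1714 genes under 2 times). Those 2 tables thus appear to hold intron reads. Whether strand was used in counting is not stated, and changes were read within a table. Each table was fitted with all its groups in edgeR 4.0.16 (R 4.3.3): filterByExpr, TMM, robust quasi-likelihood tests, Benjamini-Hochberg threshold 0.05. The fit was also run on counts simulated with its own estimates of the spread, which cannot address differences in tissue content between libraries. By rule all 10 genes are given in every comparison, those below the count filter by their levels or a fit without it. Of the other cell cycle lists at most 4 called genes by smallest adjusted p are named per list and comparison, plus Cdkn1a, Cdkn1b and Cdkn1c. Likeness is Pearson's r of log2 CPM (prior count 2) for genes whose mean reached 1 CPM in both tables. The alternatives tried were DESeq2 1.42.0, RLE size factors, no count filter, the 2 groups alone, a replicate block and leaving out each library.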

Additional observations from a re-analysis of the deposited data

Results flagged for a closer look

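In the 3 groups of 4 libraries each of the 10 genes was checked for a library that stands apart from the others, 30 checks in all, and 2 were flagged, where chance flags about 1 in 20. Ccnb1 was at 0.379 CPM in library 3 of the 1 week refed group and at 0.247 to 0.256 CPM in the others. Ccnd2 was at 17.9 CPM in library 1 of the 1 month refed group and at 21.7 to 22.4 CPM in the others. Groups of 3 were not checked.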

How the results depend on the processing

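Counts of the 10 genes called kept within 1.5 times the reported count under RLE size factors, no count filter, DESeq2, the 2 groups alone and the replicate block, with these exceptions. From 24 h to the cold 72 h fast the 2 groups alone gave 1 (reported 2). From 12 h to 1 week of refeeding no filter gave 2, DESeq2 2 and the 2 groups alone 3 (reported 1). The cause was not tested, beyond the fewer samples of the 2 groups alone and the added genes without a filter. Leaving out 1 library gave 2 to 5 from fed to 72 h, 0 to 2 from 24 h to 72 h, 2 to 5 from fed to cold, 0 to 2 from 24 h to cold and 3 to 4 from 1 h to 1 week. For the other comparisons these counts did not change. Correlations of same-numbered libraries ran from -0.234 to 0.333 in the fasting, -0.0573 to 0.258 in the refeeding and -0.0618 to -0.0168 in the 1-month table. Those of other libraries ran from -0.416 to 0.321, -0.217 to 0.203 and -0.123 to 0.187. The medians were 0.0158, 0.0394 and -0.0422 for the same number and -0.0115, -0.02 and 0.0465 for the others. No pairing was used in the main fit. A block for the number gave 5 in place of 4 from fed to cold and no other change in the 10 genes, and 408 in place of 1506 genes of the whole 1-month table. Of 412 values of single genes under other settings 5 became called and 1 lost its call, and of 540 without a library 1 became called and 27 lost theirs. No called value changed sign, while uncalled values did so 8 and 36 times. Over all genes DESeq2 called 206 (edgeR 7) from fed to 24 h, 1720 (333) from 24 h to 72 h, 2707 (1424) from 24 h to cold and 53 (0) for cold. No filter called 13 from fed to 24 h, and the 2 groups alone 852 from 24 h to cold. Without 1 library 434 to 5446 genes were called from fed to 72 h and 39 to 989 from 24 h to cold. Depth limits Cdk1 and Ccnb1, with 0 to 24 counts per library.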
